A study of Homo sapiens with 12 samples.

Results

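The zinc finger genes of human chromosome 19 were examined in RNA-seq of A375 cells, an established human melanoma line. Members were the genes named ZNF with digits and at most 1 final letter, placed on chromosome 19, whose counts over the 12 libraries summed to at least 120. The rule took 231 of the 246 chromosome 19 genes with such a name, out of 20263 genes in the table. ZNF177 and ZNF763 fell just under the count rule with sums of 110 and 104, and ZNF491 and ZNF540 passed just above it with 170 and 182. All 231 members also passed the filter on low counts applied before testing.

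The 4 groups, of 3 libraries each, were untreated cells (Ctrl), cells given the compound DdBIC (written DBIC in the labels), cells given hemin (Hemin) and cells given both (DdBIC+Hemin). All were wild-type A375 cells and total RNA was measured. DdBIC is dodecyl 1H-benzo[d]imidazole-5-carboxylate, and hemin is the chloride of ferric heme, the iron porphyrin that the study supplied to cells treated with the compound. The dose and duration of the RNA-seq treatments are not given in the sources used here. Nothing in the labels says that the replicates came from separate cultures, so the p-values measure the spread between these libraries, which may be technical.

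Most zinc finger genes of chromosome 19 stand in tandem clusters that grew by repeated duplication, and most encode an N-terminal KRAB domain followed by a row of C2H2 zinc fingers. The fingers read DNA, often in transposable elements, and the KRAB domain recruits TRIM28, which brings the histone methyltransferase SETDB1 and heterochromatin proteins. As a class their mRNAs are short-lived, so that their levels follow changes in synthesis or decay quickly.

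Total counts per library ranged from 37951275 to 44358912, and replicate libraries correlated across genes with Pearson r of 0.981 to 0.985 on log2 CPM, which are counts scaled to library size. HMOX1, the heme oxygenase that heme induces, had mean levels of 8.71 CPM in Ctrl, 7.82 in DdBIC, 63.2 in Hemin and 169 in DdBIC+Hemin, so it followed the hemin labels. Of the melanocyte lineage markers, SOX10 stood at group means of 549 to 741 CPM, whereas the pigment genes PMEL, MLANA, DCT and TYR were all under 1 CPM in every group mean. MITF, S100B and S100A1 had group means of 11.8 to 18.4, 7.38 to 11.8 and 4.14 to 5.87 CPM. Of the markers of other cells, PTPRC (immune) had no count in any library. KRT5 (keratinocyte), PECAM1 (endothelial) and ALB (liver) were under 1 CPM in every group mean. KRT14 (keratinocyte) and COL1A1 (fibroblast) had group means of 3.05 to 3.63 and 1.87 to 2.58 CPM, above those of the pigment genes. Mitochondrially encoded genes took 2.42 to 2.99% of counts in the DdBIC libraries and 2.90 to 3.10% in Ctrl, and the part of this in the results was not tested.

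The 231 members were expressed at low to moderate levels. Their median was 5.34 TPM (the authors' values scaled by transcript length, mean of the 12 libraries), against 17.4 TPM for all genes tested and 10.2 TPM for zinc finger genes on other chromosomes, and single members ranged from 0.188 to 91.8 TPM. In GENCODE 29 (GRCh38), 230 were protein-coding and ZNF788 was a pseudogene. The translated coding sequences held a median of 12 C2H2 fingers, from 0 to 31, the most in ZNF91, and 191 of 230 matched a KRAB A-box pattern. The pattern is approximate and misses some KRAB proteins, such as ZNF473, so the 39 without a match are not a set that lacks KRAB. Because duplicated genes resemble each other, 75-base words were compared between transcripts of different genes. No word was shared by 106 members, and 8 members (ZNF20, ZNF625, ZNF709, ZNF564, ZNF490, ZNF724, ZNF223 and ZNF320) shared over 50% of theirs, so their counts are uncertain. A further limit is overlap: 87 members overlapped another gene of the table, and 115 overlapped a GENCODE gene on the opposite strand, whose reads cannot be told apart where counting ignores strand.

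Promoter sequences are shown for the members that carry one motif and for the member with the largest rise. RefSeq promoters (250 bases before to 50 after the start, GRCh38.p14) were matched by symbol for 205 members and searched on both strands. The cyclic AMP response element TGACGTCA, which CREB and ATF family factors bind, was found in 7 members, 3.41% of 205, compared with 1.85% of all 35116 promoters and 3.13% of 288 promoters of zinc finger genes elsewhere. Each window gives the element in capitals with 25 bases on either side, 5′ to 3′ on the strand of the gene. The first 5 belong to neighbouring genes on the minus strand.
ZNF266: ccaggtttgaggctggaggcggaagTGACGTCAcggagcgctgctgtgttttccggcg
ZNF426: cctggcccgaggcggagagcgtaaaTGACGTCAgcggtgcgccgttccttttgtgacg
ZNF121: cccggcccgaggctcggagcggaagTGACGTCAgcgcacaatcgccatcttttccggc
ZNF561: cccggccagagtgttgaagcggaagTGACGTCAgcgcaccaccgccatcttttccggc
ZNF562: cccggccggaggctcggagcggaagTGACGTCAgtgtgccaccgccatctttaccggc
ZNF543: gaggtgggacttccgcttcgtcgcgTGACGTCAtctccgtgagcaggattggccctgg
ZNF547: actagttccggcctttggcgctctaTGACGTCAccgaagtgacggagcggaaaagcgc

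These windows lie at chr19:9435558-9435615 (ZNF266), chr19:9538634-9538691 (ZNF426), chr19:9584522-9584579 (ZNF121), chr19:9621223-9621280 (ZNF561) and chr19:9675075-9675132 (ZNF562), all on the minus strand, and at chr19:57320453-57320510 (ZNF543) and chr19:57363473-57363530 (ZNF547) on the plus strand. The 5 neighbours were identical at 32 to 51 of 58 positions in their 10 pairs, with no gaps allowed, and the other 11 pairs at 16 to 25. The element therefore stood in 5 related copies and in 2 other genes, and the copies are not independent examples.

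ZNF460, the member with the largest rise in DdBIC-treated cells, carried other letters. Its promoter (chr19:57279732-57280031, plus strand) held the AP-1 letters TGANTCA, as TGAATCA, and the C/EBP-ATF composite TGATGNAA on the opposite strand, read here as TTACATCA. Both are in capitals.
ZNF460: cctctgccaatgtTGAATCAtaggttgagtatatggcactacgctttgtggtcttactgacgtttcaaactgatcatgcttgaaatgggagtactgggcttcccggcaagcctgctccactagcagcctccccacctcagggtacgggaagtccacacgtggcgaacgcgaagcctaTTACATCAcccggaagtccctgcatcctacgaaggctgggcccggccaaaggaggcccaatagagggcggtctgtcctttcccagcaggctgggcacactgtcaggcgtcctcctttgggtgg

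Across the 205 promoters, AP-1 letters occurred in 12 (5.85%, against 7.71% of all promoters) and the C/EBP-ATF composite in 4 (1.95%, against 3.62%). The palindromic NRF1 site occurred in 5 (2.44%, against 1.24%) and the YY1 site in 2 (0.976%, against 0.849%). The letters AAAGGTCA, the response element of Nur77, were in none of the 205 windows and in 1.22% of all promoters. No motif of the 6 searched contains another. A match describes letters in this window and is not a measured binding site.

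The first comparison asked how DdBIC changed these genes in the absence of hemin. In DdBIC-treated A375 cells many zinc finger genes of chromosome 19 rose: 110 of 231 were higher than in Ctrl, 2 were lower and 119 did not pass the test (edgeR quasi-likelihood test, adjusted p under 0.05 by Benjamini-Hochberg over 14287 genes). Among all genes tested, 20.0% were higher and 17.2% lower. The median log2 fold change of the members was 0.44, with quartiles of 0.15 and 0.66, whereas that of all genes was -0.01. For 137 members the 3 DdBIC libraries lay above all 3 Ctrl libraries, and for 10 they lay below, compared with 25.9% and 24.1% of all genes. Counts from the 231 members made up 0.246 to 0.252% of each Ctrl library and 0.333 to 0.342% of each DdBIC library. These are bulk libraries, in which a change in the share of cells that express a gene and a change in RNA per cell cannot be told apart.

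The shift was seen in each library. Relative to the Ctrl mean, the median member stood at 0.39, 0.45 and 0.44 on the log2 scale in the 3 DdBIC libraries and between -0.002 and 0.03 in the Ctrl libraries. Zinc finger genes on other chromosomes stood at 0.30, 0.26 and 0.23 in the same DdBIC libraries. The plot of single members by library shows these values.

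**Figure D1:**
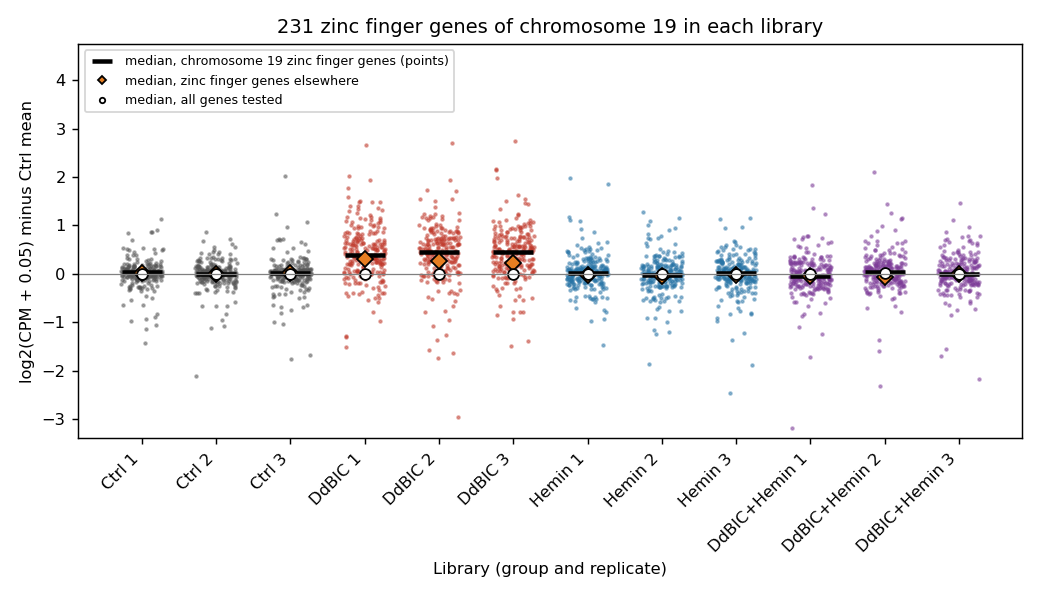
Each point is 1 of the 231 zinc finger genes of chromosome 19 in 1 library, as log2(CPM + 0.05) minus the gene's mean in the 3 Ctrl libraries; bars, diamonds and circles are the medians of the members, of zinc finger genes on other chromosomes and of all genes tested. The member medians of the DdBIC libraries (0.39, 0.45 and 0.44) lie above those of the other 9 libraries, which run from -0.05 to 0.04.

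Other genes of the chromosome were divided between rises and falls. Of 825 other genes of chromosome 19 chosen by the same count rule, 164 were higher and 138 lower, with a median log2 fold change of -0.001. Zinc finger genes on other chromosomes moved in the same direction as the members: 96 of 234 were higher and 13 lower, with a median of 0.27. The difference between these sets of genes was described and not tested, since genes are not replicates.

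**Figure D2:**
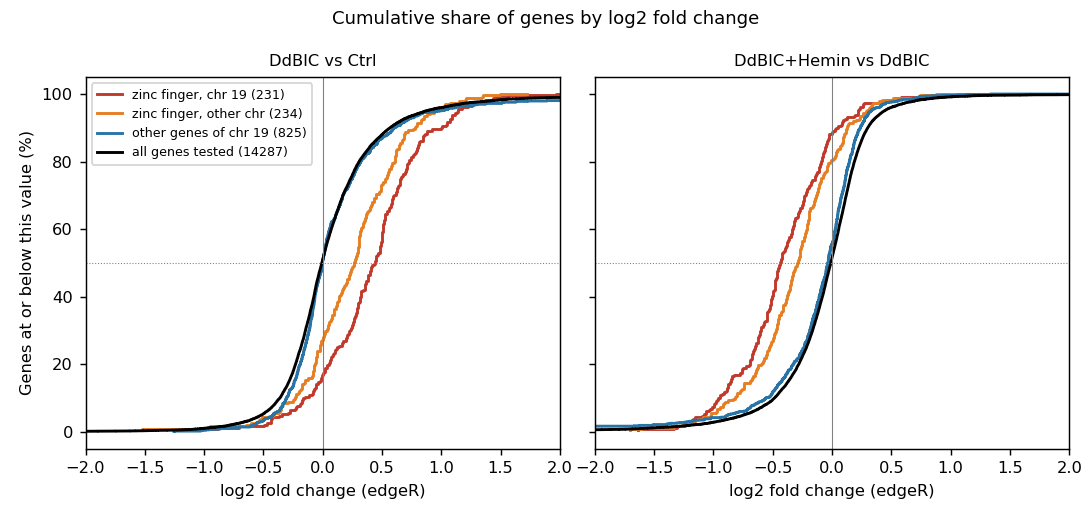
Cumulative share of genes (percent, y axis) by edgeR log2 fold change (x axis, cut at -2 and 2) for DdBIC against Ctrl (left) and DdBIC+Hemin against DdBIC (right). The curve of the 231 members crosses 50% at 0.44 on the left and at -0.43 on the right, that of the 234 zinc finger genes elsewhere at 0.27 and -0.29, and those of the other chromosome 19 genes and of all genes lie near 0.

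The 10 largest rises were taken from the members that were called, averaged 1 CPM or more and had all DdBIC libraries above all Ctrl libraries. ZNF460 (ENSG00000197714, chr19:57280051-57293569, 11 fingers with a KRAB pattern) had 0.943, 1.31 and 1.36 CPM in Ctrl, 4.97, 4.72 and 5.44 in DdBIC, 1.21, 1.61 and 1.83 in Hemin, and 1.88, 1.22 and 1.76 in DdBIC+Hemin. The 3 DdBIC libraries stood apart from the other 9, which overlapped one another. Its log2 fold change was 2.07 (SE 0.21, adjusted p = 1.69e-05 by edgeR).

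ZNF121 (ENSG00000197961, chr19:9560353-9584533, 9 fingers), whose promoter window is printed above, had the highest TPM of the 10 (22.9). Its libraries held 43.9, 37.5 and 43.1 CPM in Ctrl, 110, 97.4 and 114 in DdBIC, 42.8, 40.2 and 36.8 in Hemin, and 44.1, 44.44 and 41.0 in DdBIC+Hemin. Every DdBIC library was above every other library, and the remaining groups overlapped. The log2 fold change was 1.36 (SE 0.08, adjusted p = 2.47e-07 by edgeR).

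ZNF557 (ENSG00000130544, chr19:7069444-7087968) had 10.8, 11.9 and 12.1 CPM in Ctrl, 29.2, 26.4 and 27.5 in DdBIC, 13.0, 11.2 and 13.1 in Hemin, and 12.4, 11.9 and 10.8 in DdBIC+Hemin. As for ZNF121, only the DdBIC libraries stood apart, with a log2 fold change of 1.26 (SE 0.08, adjusted p = 5.71e-07 by edgeR). ZNF222 (ENSG00000159885, chr19:44025342-44033112) had 3.95, 4.71 and 4.68 CPM in Ctrl, 13.3, 10.04 and 12.6 in DdBIC, 4.12, 3.68 and 3.87 in Hemin, and 5.86, 5.44 and 5.54 in DdBIC+Hemin. Here the DdBIC+Hemin libraries were intermediate and overlapped neither Ctrl nor DdBIC. ZNF222 rose by 1.43 (SE 0.12, adjusted p = 3.23e-06 by edgeR) with DdBIC.

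The other six of this set were ZNF564, ZNF548, ZNF14, ZNF844, ZNF773 and ZNF543, with log2 fold changes of 1.46, 1.33, 1.23, 1.18, 1.14 and 1.14. ZNF14 had 4.62, 4.16 and 4.40 CPM in Ctrl and 10.2, 9.496 and 11.1 in DdBIC, and ZNF773 had 7.72, 8.31 and 7.65 in Ctrl and 17.8, 17.6 and 16.8 in DdBIC. Both were close between replicates. ZNF564 was not: Ctrl held 1.46, 4.13 and 4.94 CPM and DdBIC 6.23, 10.4 and 12.4, it shares over 50% of its sequence words with other genes, and its call (adjusted p = 0.0127 by edgeR) was lost when only the DdBIC and Ctrl groups were fitted.

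**Figure D3:**
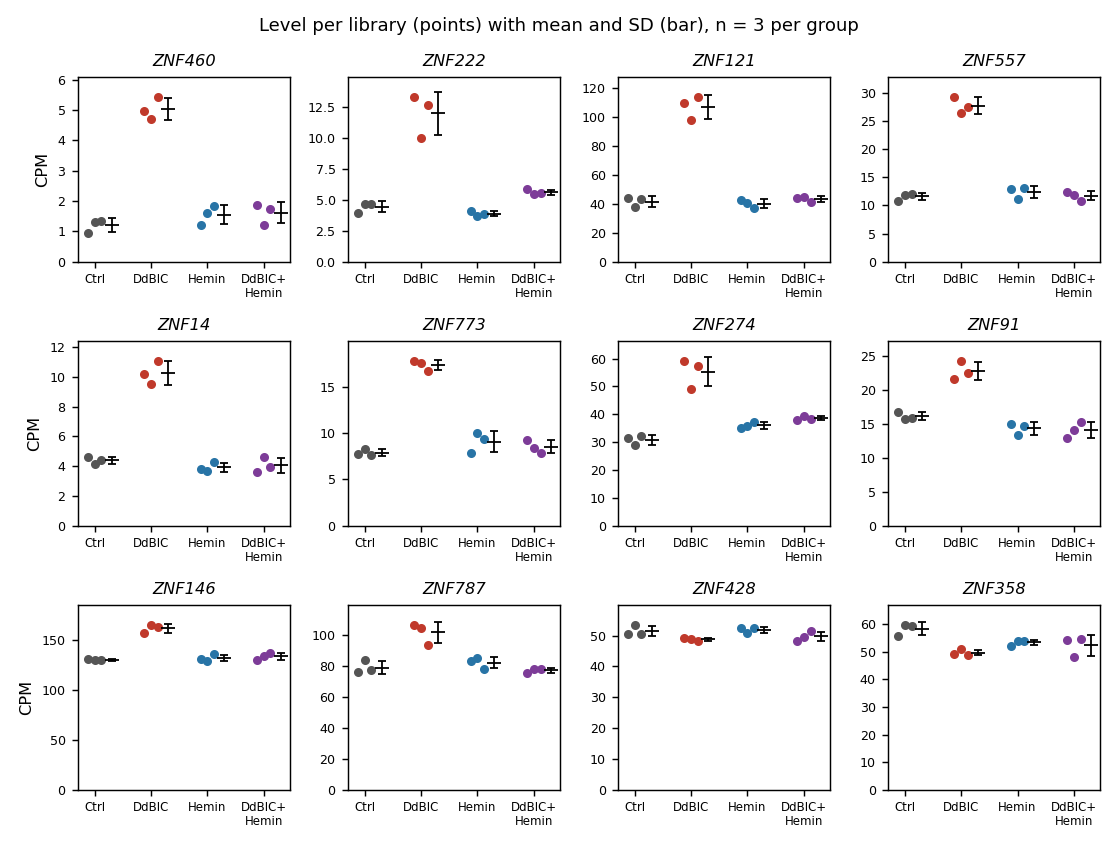
CPM (y axis, from 0) of 12 members in the 3 libraries of each group (points), with the mean and SD beside them (bars, n = 3). ZNF460, ZNF121, ZNF557, ZNF14 and ZNF773 stand apart in the DdBIC group only, the DdBIC+Hemin libraries of ZNF222 and ZNF274 also lie above those of Ctrl, ZNF428 was not called under the main scaling, and ZNF358 was lower with DdBIC.

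The 2 members that fell were ZNF358 and ZNF563. ZNF358 (ENSG00000198816, chr19:7515292-7521026), among the most abundant members at 56.5 TPM, had 55.7, 59.9 and 59.5 CPM in Ctrl and 49.3, 51.0 and 49.1 in DdBIC, which did not overlap. Its log2 fold change was -0.23 (SE 0.05, adjusted p = 0.00504 by edgeR). ZNF563, named here after its values were seen, had 0.347, 0.856 and 0.614 CPM in Ctrl and 0.309, 0.271 and 0.307 in DdBIC, so both groups were under 1 CPM. Its log2 fold change was -1.03 (SE 0.34, adjusted p = 0.0324 by edgeR). ZNF358 kept its call in all 19 alternative settings. Only 1 member was lower with DESeq2, with only the groups compared, and without Ctrl replicate 2, Ctrl replicate 3 or DdBIC replicate 2. ZNF563 therefore lost its call in these settings.

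The 5 members with the highest TPM were ZNF787 (91.8), ZNF146 (81.6), ZNF428 (75.9), ZNF580 (61.0) and ZNF358 (56.5), none with a KRAB pattern. ZNF787 had 76.0, 83.5 and 77.4 CPM in Ctrl and 107, 105 and 93.7 in DdBIC, a log2 fold change of 0.36 (SE 0.06, adjusted p = 0.000374 by edgeR). ZNF146, which consists of zinc fingers alone, had 131, 130 and 130 CPM in Ctrl and 157, 166 and 163 in DdBIC, a log2 fold change of 0.32 (SE 0.03, adjusted p = 1.4e-05 by edgeR). In both genes the groups did not overlap. ZNF428 and ZNF580 did not pass the test, at -0.08 (SE 0.04) and -0.02 (SE 0.06). Under upper-quartile scaling ZNF428 passed as lower, at -0.14.

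Members with described functions were followed whatever their values. Of those that bind transposable elements, ZNF91, which represses SVA elements, had 16.8, 15.7 and 15.9 CPM in Ctrl, 21.6, 24.3 and 22.5 in DdBIC, 15.005, 13.3 and 14.7 in Hemin and 12.9, 14.2 and 15.3 in DdBIC+Hemin. Its DdBIC libraries were the highest of the 12, with a log2 fold change of 0.50 (SE 0.08, adjusted p = 0.000407 by edgeR). ZNF93, which represses LINE-1 elements, varied widely, with 2.11, 4.51 and 6.63 CPM in Ctrl and 15.5, 5.49 and 18.1 in DdBIC. These groups overlapped, and the call (log2 fold change 1.56, SE 0.53, adjusted p = 0.0443 by edgeR) was lost in 12 of 19 alternative settings. ZNF675 had 7.10, 7.68 and 7.55 CPM in Ctrl and 11.8, 14.96 and 12.1 in DdBIC, with a log2 fold change of 0.80 (SE 0.16).

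ZNF274 binds the 3′ ends of zinc finger genes and recruits SETDB1 there, and so acts on the chromatin of the clusters themselves. It had 31.5, 28.9 and 32.2 CPM in Ctrl, 59.2, 49.3 and 57.5 in DdBIC, 35.0, 35.7 and 37.3 in Hemin, and 38.1, 39.4 and 38.4 in DdBIC+Hemin. No library of the 3 treated groups reached down to the Ctrl libraries. The rise with DdBIC was 0.84 (SE 0.07, adjusted p = 2.94e-06 by edgeR), with no adjusted p over 0.000377 in any of 19 alternative settings.

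Among described repressors of signalling or metabolic genes, ZNF350 (ZBRK1, a partner of BRCA1) rose by 0.65 (SE 0.16, adjusted p = 0.00821 by edgeR). ZNF224, a repressor of the aldolase A gene, rose by 0.36 (SE 0.07, adjusted p = 0.00141). ZNF649 rose by 0.58 (SE 0.20, adjusted p = 0.0395), a call lost in 8 of 19 alternative settings. ZNF383 (log2 fold change 0.52, SE 0.27), ZNF418 (-0.06, SE 0.22) and the imprinted ZNF331 (0.33, SE 0.14) did not pass, with edgeR adjusted p of 0.158, 0.869 and 0.0978. Without DdBIC replicate 2 the value of ZNF383 was 0.31, and that of ZNF418 turned to 0.10 without Ctrl replicate 2 and to 0.06 without DdBIC replicate 3. ZNF331 passed in 2 of 19 alternative settings, with only the groups compared and without Hemin replicate 2. ZNF382 was under the count rule.

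A part of the members swung between replicates. In 58 members the replicates of at least 1 group spanned over 1 log2 unit. Of these 58, 5 were called higher with DdBIC, against 105 of the 173 others and 20.0% of all genes. The split rests on the replicate spread that the test also uses, so these shares cannot be set against that of all genes. The median log2 fold change was 0.32 in the 58 and 0.45 in the 173. ZNF264 was the clearest case among the named genes, with 2.08, 1.89 and 16.6 CPM in Ctrl, 26.0, 26.8 and 27.5 in DdBIC, 14.9, 2.498 and 2.12 in Hemin and 14.7, 17.5 and 3.53 in DdBIC+Hemin. Single libraries of 3 groups stood far from their replicates, and the DdBIC libraries were the highest of the 12. Its log2 fold change of 1.96 (SE 1.03) did not pass (adjusted p = 0.171 by edgeR) and was 3.75 without Ctrl replicate 3, the 1 alternative setting of 19 in which it passed. ZNF473, a factor of histone pre-mRNA processing, also swung, with 45.2, 17.3 and 44.3 CPM in DdBIC.

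Members fell into 16 clusters when split at gaps over 1 Mb, 9 of them with at least 5 members. The last cluster, chr19:55476332-58481230, held 56 members, of which 30 were higher with DdBIC and none lower, with a median log2 fold change of 0.46. The cluster at chr19:11483427-12633840 had the highest median of these 9, 0.63, with 14 of 25 members higher and 1 lower. In the pericentromeric cluster at chr19:19668796-24129961, which holds ZNF91, ZNF93 and ZNF675, 15 of 32 were higher with a median of 0.42, and at chr19:51571298-53580269 17 of 35 were higher with a median of 0.33. Of the remaining clusters of this size, 8 of 14, 11 of 25 and 9 of 24 members were higher in 3, and 1 of 5 in each of the first cluster and the cluster at chr19:34677639-34964049, beside 20.0% of all genes. The other 7 clusters held 1 to 3 members each, and in 4 of them no member was higher.

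**Figure D4:**
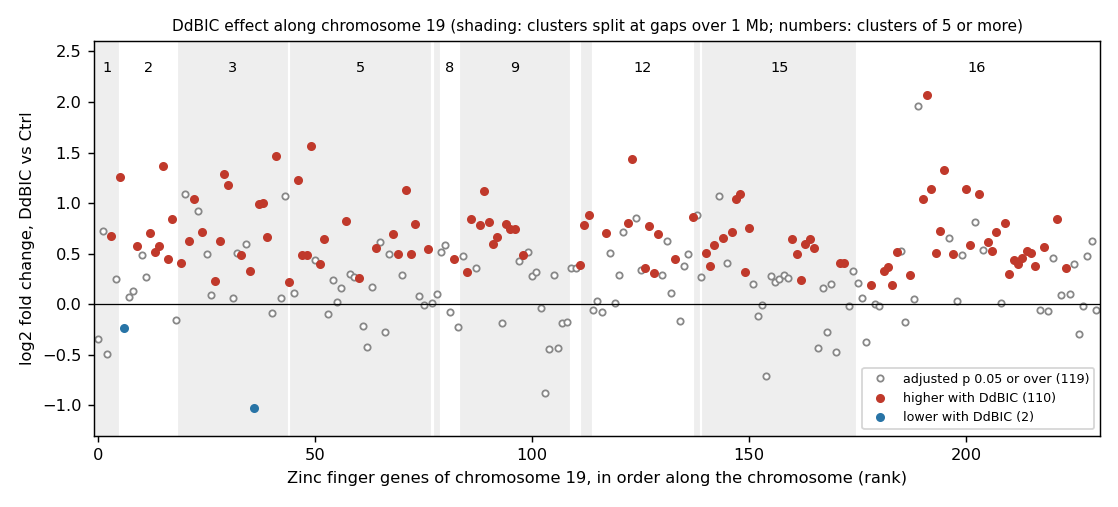
Log2 fold change of DdBIC against Ctrl (y axis) for the 231 members in their order along chromosome 19 (x axis, rank), with alternate clusters shaded and clusters of 5 or more members numbered. Filled red points are the 110 members called higher, blue the 2 called lower, and open points the 119 that did not pass; red points occur in every numbered cluster.

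Described by protein features, 96 of 191 members with a KRAB pattern were higher (median 0.49) and 14 of 39 without a match to it (median 0.25), a group that still holds some KRAB proteins. Members with 0 to 5 fingers had a median of 0.04 with 4 of 13 higher, and groups with more fingers had medians of 0.36 to 0.50. Depth moved with the calls: with members divided by mean CPM into 4 parts, from lowest to highest, 11 of 58, 30 of 58, 35 of 57 and 34 of 58 were higher, beside 20.0% of all genes, so that the lowest part lay near that share. Of the members with no shared words 45 of 106 were higher and 1 was lower, and of those sharing over 10% of their words 24 of 40 were higher and 1 was lower. These features overlap one another, and their separate parts were not tested.

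The 7 members with a cyclic AMP response element were all higher with DdBIC, with a median log2 fold change of 0.73, compared with 93 of the 198 other members with a promoter. ZNF562 had 29.2, 34.3 and 32.2 CPM in Ctrl and 58.8, 53.1 and 60.4 in DdBIC, and ZNF543, which lies in another cluster, had 4.89, 4.69 and 4.84 in Ctrl and 11.9, 10.4 and 9.53 in DdBIC. Neither pair of groups overlapped. The smallest of the 7 changes was that of ZNF561, 0.45 (SE 0.05), with 32.4, 31.3 and 30.4 CPM in Ctrl and 42.7, 42.9 and 43.2 in DdBIC. As 5 of the 7 are related neighbours within 262.5 kb, they are not 7 separate cases. Of the 5 members with the NRF1 letters 1 was higher, of the 12 with AP-1 letters 6, and of the 4 with the C/EBP-ATF composite 3, beside 20.0% of all genes, the share also seen with the NRF1 letters.

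The second comparison asked what hemin did in cells that also received DdBIC. In DdBIC+Hemin against DdBIC alone, 105 of 231 members were lower, 1 was higher and 125 did not pass (edgeR, adjusted p under 0.05), while 18.4% of all genes were lower and 13.5% higher, a balance over all genes that turned under upper-quartile scaling. The median log2 fold change was -0.43, against -0.01 for all genes. For 130 members the DdBIC+Hemin libraries lay below every DdBIC library, and for 3 above, compared with 24.4% and 19.8% of all genes. The members' counts made up 0.239 to 0.246% of each DdBIC+Hemin library. Zinc finger genes elsewhere fell in 104 of 234 cases and rose in 7, with a median of -0.29.

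The largest falls were those of ZNF460 (-1.64, SE 0.20), ZNF14 (-1.33, SE 0.11), ZNF121 (-1.31, SE 0.08), ZNF557 (-1.24, SE 0.08) and ZNF671 (-1.24, SE 0.24), with edgeR adjusted p of 0.00011, 4.73e-06, 5.11e-07, 9.14e-07 and 0.00239. ZNF671 had 4.97, 4.21 and 4.66 CPM in DdBIC and 1.88, 2.49 and 1.505 in DdBIC+Hemin, with 1.74, 3.45 and 2.74 in Ctrl. The DdBIC+Hemin libraries were the lower and overlapped Ctrl. All 7 members with a cyclic AMP response element were lower in this comparison too. Of the 198 other members with a promoter, which were less abundant by median TPM, 90 were lower, beside 18.4% of all genes. This comparison shares the DdBIC libraries with the first, so the 2 results are not independent. The member that was higher was again ZNF563, with 0.593, 0.572 and 0.821 CPM in DdBIC+Hemin and a log2 fold change of 1.16 (SE 0.33, adjusted p = 0.0206 by edgeR). This call was lost without DdBIC replicate 1, without DdBIC replicate 2 and without DdBIC+Hemin replicate 3, where no member was higher.

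With hemin alone, no member was called higher or lower by the edgeR test, whereas 1.47% of all genes were higher and 2.59% lower. The median was -0.01, 23 of 231 members had an unadjusted p under 0.05 beside 2383 of all 14287 genes, a larger share, and DESeq2 called 2 higher and 2 lower. ZNF473 had 31.2, 28.2 and 29.4 CPM in Ctrl and 15.005, 12.8 and 7.95 in Hemin. These libraries did not overlap, yet the log2 fold change of -1.31 (SE 0.45) did not pass (adjusted p = 0.176 by edgeR).

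Few members differed from untreated cells when both agents were given. In DdBIC+Hemin against Ctrl 2 were higher and 3 lower, with 5.66% and 6.74% of all genes called, and the median log2 fold change was 0.003. The 2 higher were ZNF274 (0.32, SE 0.07, adjusted p = 0.00897 by edgeR) and ZNF468 (0.29, SE 0.08, adjusted p = 0.0481). The 3 lower were ZNF45 (-0.39, SE 0.11), ZNF587B (-0.29, SE 0.08) and ZNF700 (-0.23, SE 0.06). All but ZNF274 were named after their values were seen. Without Ctrl replicate 3, and without DdBIC+Hemin replicate 1, no member was called lower.

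Against Hemin alone, the DdBIC+Hemin libraries give the effect of DdBIC in the presence of hemin, a comparison added after seeing the data that shares no library with DdBIC against Ctrl. It called 2 members higher (ZNF222, 0.53, SE 0.12, and ZNF653, 0.41, SE 0.10) and 2 lower (ZNF524, -0.68, SE 0.16, and ZNF616, -0.37, SE 0.09), where 3.71% of all genes were higher and 3.09% lower. The median was -0.004. Both higher calls were lost without DdBIC+Hemin replicate 1, without DdBIC+Hemin replicate 3 and without Hemin replicate 3. Both lower calls were lost without DdBIC+Hemin replicate 3. ZNF653, ZNF524 and ZNF616 were named after their values were seen. ZNF653 had 11.2, 10.6 and 10.7 CPM in Hemin and 13.9, 13.8 and 15.5 in DdBIC+Hemin, so that these groups did not overlap.

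The difference between the effects of DdBIC with and without hemin was tested as an interaction. It passed the test as negative, meaning a smaller or more negative effect with hemin, in 72 of 231 members and as positive in 1 (ZNF563, 1.79, SE 0.47), against 10.2% and 6.40% of all genes, and 158 members did not pass. The positive call of ZNF563 was lost without Ctrl replicate 2, without Hemin replicate 2 and without DdBIC+Hemin replicate 3, where no member was positive. The median interaction over the members was -0.40. The largest were ZNF460 (-2.004, SE 0.29), ZNF557 (-1.34, SE 0.12), ZNF724 (-1.33, SE 0.20), ZNF121 (-1.25, SE 0.11) and ZNF773 (-1.23, SE 0.13). ZNF724, one of the genes with shared sequence, had 5.93, 9.32 and 7.83 CPM in Ctrl, 17.2, 16.7 and 16.8 in DdBIC, 9.67, 9.25 and 10.1 in Hemin, and 8.89, 9.30 and 7.23 in DdBIC+Hemin. Among zinc finger genes elsewhere the interaction passed as negative in 75 of 234 and as positive in 3, and 156 did not pass.

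**Figure D5:**
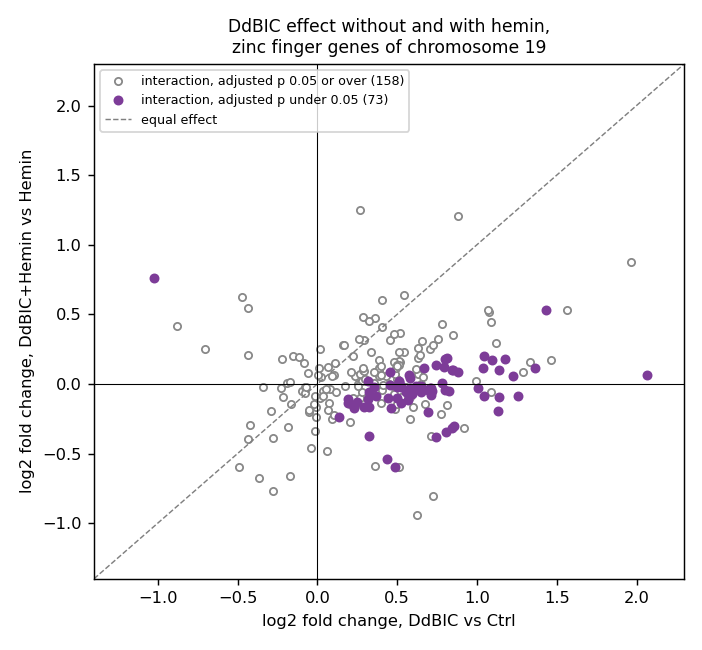
Log2 fold change of DdBIC against Ctrl (x axis) and of DdBIC+Hemin against Hemin (y axis) for the 231 members; the dashed line marks equal effects, and filled points are the 73 members with an interaction at adjusted p under 0.05. The points spread along the x axis around a median of 0.44 and lie around 0 on the y axis (median -0.004).

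Of the machinery that these proteins use, TRIM28 was slightly lower with DdBIC (log2 fold change -0.09, SE 0.02, adjusted p = 0.00695 by edgeR), and SETDB1 did not pass (0.11, SE 0.05, adjusted p = 0.126). Of 32 genes of KRAB corepressors and heterochromatin, 4 were higher (12.5%, against 20.0% of all genes) and 11 lower (34.4%, against 17.2%) with DdBIC, with a median of -0.06. MORC3, which silences endogenous retroviruses, rose by 0.78 (SE 0.06), and RESF1 (listed as KIAA1551), a retroelement silencing factor, by 0.70 (SE 0.15). CHD3, a remodeller of the NuRD complex, and EHMT2, the H3K9 methyltransferase G9a, had log2 fold changes of -0.39 (SE 0.04) and -0.33 (SE 0.05). With hemin added to DdBIC, 8 of the 32 were higher (25%, against 13.5% of all genes) and 6 lower (18.8%, near the 18.4% of all genes).

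Since zinc finger mRNAs are short-lived, genes of deadenylation and decapping were listed as well. Of 26 genes, 10 were higher (38.5%, against 20.0% of all genes) and 1 lower (3.85%, against 17.2%) with DdBIC, with a median log2 fold change of 0.17. In DdBIC+Hemin against DdBIC, 1 was higher (3.85%, against 13.5%) and 13 lower (50%, against 18.4%). BTG1, which recruits the CCR4-NOT deadenylase, had 108, 105 and 106 CPM in Ctrl, 268, 239 and 251 in DdBIC, 112, 112 and 111 in Hemin and 156, 157 and 153 in DdBIC+Hemin. Its DdBIC libraries were the highest, and the DdBIC+Hemin libraries were intermediate. BTG2, TOB1 and the CCR4-NOT subunit CNOT4 rose by 1.01 (SE 0.09), 0.65 (SE 0.08) and 0.59 (SE 0.10).

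Other C2H2 genes of the same clusters carry names that the rule leaves out. Of 18 listed, 17 were in the table and 11 were tested. ZSCAN22 (log2 fold change 0.81, SE 0.07, adjusted p = 6.05e-06 by edgeR) and ZFP82 (0.60, SE 0.12, adjusted p = 0.0027) were higher with DdBIC and none was lower, so that 18.2% of the 11 were higher, near the 20.0% of all genes. Their median was 0.28. ZSCAN22 had 14.7, 14.9 and 13.1 CPM in Ctrl, 25.6, 25.7 and 23.7 in DdBIC, 14.5, 14.5 and 13.1 in Hemin and 15.7, 14.7 and 16.3 in DdBIC+Hemin. Its DdBIC libraries alone stood apart.

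Under upper-quartile scaling, which moved the median of all genes to -0.07, 101 members were higher with DdBIC, 5 were lower and their median was 0.38. Under this scaling the balance of calls over all genes turned, with higher genes making up 39.95% of those called in place of 53.8% for DdBIC against Ctrl, 59.2% in place of 42.4% for DdBIC+Hemin against DdBIC and 55.4% in place of 38.5% for the interaction, while the members' medians kept their sign. Among the 144 members that overlap no other gene of the table, 64 were higher and 1 lower, and their median was 0.45, beside 0.44 for all members.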

How the data were processed

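RNA-seq of 12 A375 libraries (4 groups of 3) was analysed. The authors deposited 1 table of 20263 genes that gives, for each library, whole-number read counts per gene that the authors did not normalize, TPM values that the authors scaled by length to one sum per library, and FPKM values that the authors scaled by length and depth. The submitters' processing notes name Trim Galore, Subread, featureCounts and hg38, and the use of strand is not given in the sources used here. Groups came from the sample labels. TPM served for levels between genes and FPKM only for checks.

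Counts were fitted in R 4.3.3 with edgeR 4.0.16 (filterByExpr, which left 14287 genes, TMM factors, robust quasi-likelihood F tests over 12 libraries with 8 residual degrees of freedom). The standard error of a log2 fold change is its size divided by the square root of F, and p-values were adjusted by Benjamini-Hochberg over all 14287 genes and called under 0.05. CPM values are counts scaled by TMM-adjusted library sizes. Depth was 37951275 to 44358912 counts per library, at which 3 counts, the limit that a count of 0 allows, are under 0.0791 CPM. This limit covers counting error only, whereas the standard errors also include the spread between libraries. On data simulated for DdBIC against Ctrl, 100 of 14287 genes were changed by 0.5 log2 units and 100 by 1. The fit called 38.4% and 64.3% of these, none with the wrong sign, and 3.81% of the called genes were unchanged ones. In the real data 20.0% of genes were called higher and 17.2% lower, a larger part than was changed in the simulation. The cutoff on adjusted p depends on that part, so these rates need not hold for the real comparison.

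Members and gene lists were chosen with earlier results of these data known. Genes were named by rule unless stated otherwise. In DdBIC against Ctrl they were the 10 largest rises and falls among called members averaging 1 CPM or more whose libraries did not overlap. In DdBIC+Hemin against DdBIC, and in the interaction without the overlap condition, they were the 5 largest rises and the 5 largest falls. Members with described functions, the 5 highest in TPM and the 5 with the largest range between groups were also named. Fingers and the KRAB pattern were read from GENCODE 29 translations, since no protein table was used here. Alternatives were DESeq2 1.42.0, other scalings and filters, a fit of only the groups compared, a replicate block, subsets of members, and each library left out in turn.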

Additional observations from a re-analysis of the deposited data

Results flagged for a closer look

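The effect of DdBIC differed with hemin, by the interaction term of the edgeR fit, in 72 members with a lower effect and 1 with a higher one. Of all genes, 10.2% had a lower effect in hemin and 6.40% a higher one. Zinc finger genes elsewhere had a lower effect in 75 of 234 cases and a higher one in 3. Among the named genes with a lower effect in hemin, those with an interaction beyond 1 log2 unit were ZNF460 (-2.004), ZNF557 (-1.34), ZNF724 (-1.33), ZNF121 (-1.25), ZNF773 (-1.23), ZNF14 (-1.17), ZNF671 (-1.15) and ZNF543 (-1.04). Smaller interactions were those of ZNF844 (-0.99), ZNF222 (-0.90), ZNF675 (-0.84), ZNF274 (-0.74), ZNF91 (-0.52), ZNF787 (-0.45), ZNF224 (-0.38) and ZNF146 (-0.30). With 3 libraries a group, no test for a single outlying library was made.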

How the results depend on the processing

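No named gene that was called changed direction, and the medians over the members kept their sign for DdBIC against Ctrl, for DdBIC+Hemin against DdBIC and for the interaction. The medians of the other 3 comparisons lay close to 0 and changed sign between settings. For DdBIC against Ctrl, the count of higher members was 64 among the 144 members that overlap no other gene and otherwise stayed within 1.5 times 110. The count of lower members was 1 with DESeq2, with only the groups compared, with a sum of at least 1200 counts, without overlapping members and without the 58 members that swing between replicates (a subset chosen after seeing the data), and 5 with upper-quartile scaling. Medians were 0.38 with upper-quartile scaling and 0.48 at 1200 counts. For DdBIC+Hemin against DdBIC the higher count was 0 at 1200 counts and without swinging members, the lower count 66 without overlapping members, and the medians -0.37 (upper quartile) and -0.48 (1200 counts). For Hemin against Ctrl the higher count was 2 with DESeq2, 1 with only the groups compared and 1 with upper-quartile scaling, and the lower count 2 with DESeq2 and 2 with only the groups compared. For DdBIC+Hemin against Ctrl the higher count was 1 with library totals, with no filter, with only the groups compared, with the replicate block and without overlapping members, and the lower count 5 with DESeq2, 6 with library totals, and 1 with only the groups compared and without overlapping members. For DdBIC+Hemin against Hemin the higher count was 1 with the replicate block and 0 without overlapping members, and the lower count 1 with only the groups compared and without overlapping members. For the interaction the higher count was 2 with DESeq2, with at least 10 counts in every library and with the replicate block, 3 with upper-quartile scaling, and 0 at 1200 counts and without swinging members. The lower count was 46 without overlapping members, and the medians were -0.34 (upper quartile) and -0.44 (1200 counts). The cause was not tested beyond the smaller number of members in the subsets. Upper-quartile scaling moved the share of higher among all called genes from 53.8 to 39.95% for DdBIC against Ctrl, from 42.4 to 59.2% for DdBIC+Hemin against DdBIC and from 38.5 to 55.4% for the interaction, and library totals moved it from 45.6 to 34.4% for DdBIC+Hemin against Ctrl and from 54.6 to 42.3% for DdBIC+Hemin against Hemin.

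Leaving out each library in turn gave 96 to 113 higher and 1 to 4 lower members (median 0.41 to 0.45) for DdBIC against Ctrl, 0 to 3 and 95 to 109 (-0.45 to -0.41) for DdBIC+Hemin against DdBIC, 0 to 1 and 0 to 1 (-0.02 to 0.0005) for Hemin against Ctrl, 1 to 3 and 0 to 3 (-0.03 to 0.02) for DdBIC+Hemin against Ctrl, 0 to 2 and 0 to 2 (-0.006 to 0.02) for DdBIC+Hemin against Hemin, and 0 to 2 and 65 to 72 (-0.43 to -0.38) for the interaction. Nothing in the labels says whether the replicate numbers pair the libraries, and the main fit did not pair them. With the number as a block, DdBIC against Ctrl gave 110 higher and 2 lower members, and DdBIC+Hemin against DdBIC 1 and 102.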
